A study of Vitis vinifera with 18 samples.

Results

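Ripe berries of Aglianico, a red grapevine variety (Vitis vinifera) of southern Italy, were compared between plants grown at a site in Sicily and plants grown at a site in Campania. The comparison used 5 of the 18 RNA-sequencing libraries of the series: Aglianico Sicily replicates 1, 2 and 3, and Aglianico Campania replicates 1 and 2. The series also holds Aglianico from another site, Molise, and Cabernet Sauvignon from all 3 sites, with 3 biological replicates for each of the 6 combinations, to ask how genotype and environment act together on the berry. All vines grew in the open field and were trained as low bushes with spur pruning, and each replicate was a pool of 10 whole berries without their seeds. The labels give the variety of the vines and no clone, so clone, like anything else that differed between the plantings, cannot be told apart from site. In a pool of whole berries, fewer cells of a type and less RNA per cell cannot be told apart either.

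The library labelled Aglianico Campania replicate 3 was left out. Across the 23520 clusters used here, the correlation of its log2 levels was 0.98 to 0.987 with the 3 Cabernet Sauvignon Campania libraries and 0.903 to 0.914 with Aglianico Campania replicates 1 and 2, so its profile went against its label. The deposited table counts reads in 97442 transcript clusters, features that carry a number in place of a gene name. The 5 libraries held 22791077 to 26264297 expected counts at Sicily and 22637307 to 31859647 at Campania. Clusters with 10 or more counts in at least 2 of the 5 libraries were kept, which left 23520. They fell into 3 kinds that are reported apart. In all, 22222 were counted in each of the 5 libraries, 262 were on/off clusters with counts in every library of one site and none at the other, and 1036 were partly counted, with no count in some library but no such clean split.

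During ripening, grape berries accumulate sugars and lose acids, and the skins of red varieties build up anthocyanin pigments. Light, temperature and water supply are known to shift these processes, and flavonoid and stress-response genes are among those known to vary with the growing site. The clusters of the table cannot be assigned to these pathways, because 0 of their 97442 identifiers matched the gene table of the RefSeq assembly used here. The results are therefore given for clusters by number and by how abundant they are. Levels are given as CPM, the deposited expected counts divided by library depth, with depth adjusted by edgeR's TMM scaling factors.

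Libraries of one site were more alike than libraries of different sites. The correlation of log2 levels across clusters was 0.965 to 0.972 between the Sicily libraries and 0.952 between the 2 Campania libraries, whereas pairs from different sites gave 0.905 to 0.928. These coefficients are across clusters, which are not independent replicates. Among the 22222 clusters counted in every library, the median standard deviation of log2 levels within a site was 0.222 at Sicily and 0.235 at Campania. Fewer clusters reached 10 counts at Sicily, with 19979, 20571 and 19173 in replicates 1, 2 and 3, against 24355 and 23332 in Campania replicates 1 and 2. The ranges of the sites did not overlap in that number. It depends on scaled depth, as the TMM factors were 0.963, 0.965 and 0.739 at Sicily and 1.10 and 1.33 at Campania. After this scaling, 10 counts stood for a higher CPM in each Sicily library than in either Campania library. Whether fewer clusters were transcribed at Sicily was not tested.

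By its 20 most abundant clusters, the transcript pool was more concentrated in the Sicily libraries. The 20 most abundant clusters of a library took 27.0%, 25.4% and 34.0% of the counts in Sicily replicates 1, 2 and 3, against 22.9% and 16.7% in Campania replicates 1 and 2. All 3 Sicily libraries lay above both Campania libraries, and the means were 28.8% ± 4.6 (SD, n = 3) at Sicily and 19.8% ± 4.3 (SD, n = 2) at Campania. The exact two-sided permutation p was 0.1, the smallest that 3 libraries against 2 allow, so the difference could not pass 0.05 in this design. For the 5 most abundant clusters the sites overlapped, with 15.65%, 12.63% and 16.33% at Sicily against 13.44% and 9.287% at Campania (exact permutation p = 0.3). For the 100 most abundant they did not overlap, with a difference of 11 percentage points (exact permutation p = 0.1). The lists overlapped in part: 9 clusters were among the 20 most abundant in each of the 5 libraries, 12 in all 3 Sicily libraries and 16 in both Campania libraries, out of 38 clusters that reached this rank in any library. Of those 38, 10 were called higher at Sicily and 1 lower by the test described next, and 8 were only partly counted.

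Among the clusters counted in all 5 libraries, 1415 were higher and 1089 lower at Sicily (edgeR quasi-likelihood test, Benjamini-Hochberg adjusted p under 0.05). Over all 23520 clusters tested, 6.77% were called higher and 6.16% lower, 12.9% in all. The median log2 fold change was 1.63 among the clusters called higher, with an interquartile range of 1.10 to 2.49, and -1.93 among those called lower, with an interquartile range of -2.62 to -1.33. At least 4-fold differences were found for 521 of the 1415 and 512 of the 1089, and at least 16-fold for 95 and 46. The libraries of the sites did not overlap for any called cluster of this kind, but that alone was common: over all clusters tested, 24.5% lay higher in every Sicily library than in both Campania libraries and 26.4% lay lower. The median log2 fold change of all 22222 clusters was 0.00 under TMM scaling.

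The balance of higher and lower calls depended on the scaling. Under upper-quartile scaling, which moved the median log2 fold change of these clusters to -0.15, 1127 were called higher and 1562 lower, so that 41.9% of calls were higher, against 56.5% under TMM. Leaving out 1 library reduced the number called higher to 431 without Sicily replicate 1, 724 without Sicily replicate 2, 534 without Sicily replicate 3, 640 without Campania replicate 2 and 1030 without Campania replicate 1. The number called lower became 253, 454, 322, 508 and 632 in the same order of libraries. With Campania replicate 3 included, 307 were called higher and 214 lower.

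**Figure D1:**
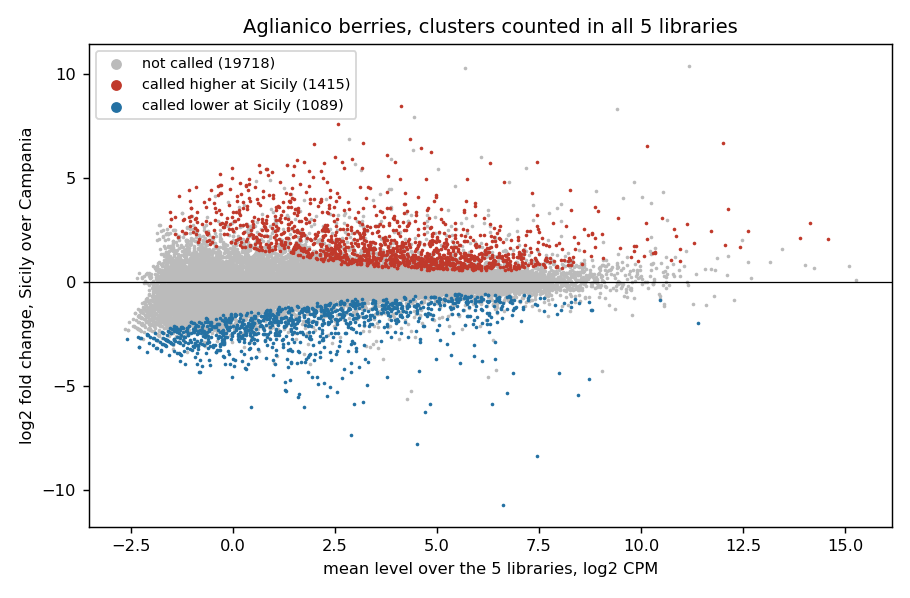
Log2 fold change of Sicily over Campania (y axis) against the mean level over the 5 libraries in log2 CPM (x axis), 1 point per cluster counted in all 5 libraries. The 1415 clusters called higher at Sicily lie above zero over the whole range of levels and reach the most abundant clusters, while most of the 1089 called lower lie at low levels.

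More of the most abundant clusters were called higher than lower at Sicily. When the clusters counted in all 5 libraries were ranked by their mean level over those libraries, 24 of the 100 most abundant were higher at Sicily and 2 were lower. In the next 900 clusters, 10.6% were higher and 2.89% lower. Between ranks 6001 and 10000, at 7.62 to 21.7 CPM, 8.02% were higher and 3.9% lower. Among the 7222 least abundant clusters, at 0.161 to 1.75 CPM, 168 were higher (2.33%) and 388 lower (5.37%).

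Of all clusters counted in the 5 libraries, 6.37% were higher and 4.9% lower. The rank used the levels being compared, with 3 Sicily and 2 Campania libraries in the mean, so a cluster raised at Sicily was also moved up in rank. Ranked by the mean of the 2 site means, 23 of the 100 most abundant were higher and 2 lower, and of the 7222 least abundant 190 were higher and 363 lower. Ranked by the Aglianico Molise libraries, which took no part in the comparison, 16 of the 100 most abundant were higher and 5 lower. In that ranking 340 of the 7222 least abundant were higher and 323 lower, so the lean to lower calls among weak clusters was not seen. Both rankings were chosen after seeing the data.

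The median log2 fold change was, by the mean over the 5 libraries, 0.75 for the 100 most abundant clusters, 0.15 for the next 900 and -0.41 for the 7222 least abundant. By the Molise ranking it was 0.29, 0.06 and -0.31. A cluster could pass the filter through 2 libraries of 1 site alone. Whether this shifted the median of the least abundant clusters in either ranking was not tested. Under upper-quartile scaling, 21 of the 100 most abundant were higher and 3 lower, and of the least abundant 143 were higher and 514 lower. Among the 100 most abundant, the number called higher was 5 without Sicily replicate 1, 11 without Sicily replicate 2, 8 without Sicily replicate 3, 19 without Campania replicate 1 and 7 without Campania replicate 2, with at most 2 lower in each. The 7222 least abundant held 36 higher against 39 lower calls when Sicily replicate 1 was left out, and 66 against 120, 52 against 66, 56 against 150 and 39 against 79 without the other libraries in the same order.

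**Figure D2:**
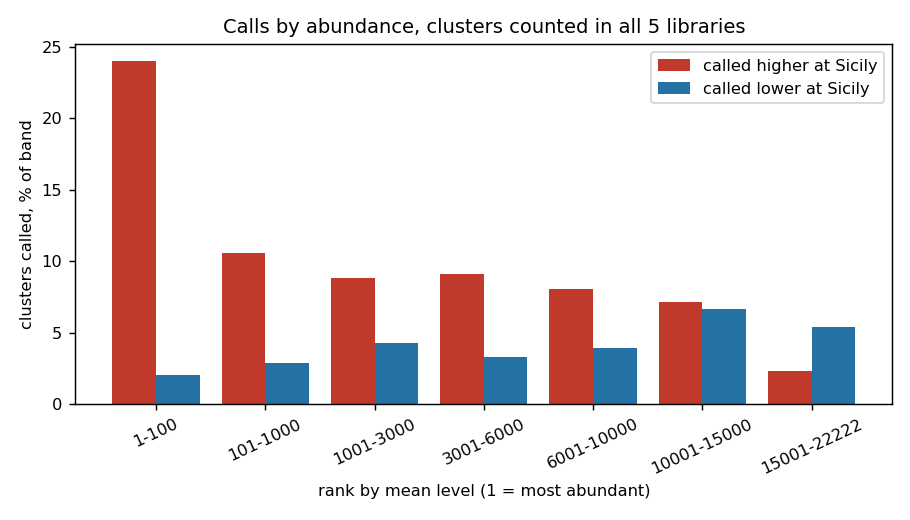
Share of clusters called higher (red) or lower (blue) at Sicily in 7 bands of abundance rank (x axis, by the mean over the 5 libraries, 1 is the most abundant), in percent of the clusters of the band (y axis). Higher calls make up 24% of the first band and 2.33% of the last, where lower calls make up 5.37%.

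The higher clusters carried a larger summed level than the lower ones in each library. Summed over the 1415 clusters called higher, the level was 221150, 196310 and 292950 CPM in Sicily replicates 1, 2 and 3, against 71279 and 51998 CPM in Campania replicates 1 and 2. Summed over the 1089 called lower, it was 14857, 15018 and 14041 CPM at Sicily, against 43103 and 36958 CPM at Campania. The clusters were chosen by this same difference, so the sums describe their levels and carry no test. TMM-scaled levels do not add up to the same total in each library, so these sums and those below are not shares of counts. They overstate the share most in Sicily replicate 3, with a TMM factor of 0.739, and understate it at Campania, with factors of 1.10 and 1.33. The 24 higher clusters among the 100 most abundant had log2 fold changes of 1.02 to 6.68, with a median of 2.13. Their summed level was 144170, 126090 and 210460 CPM in Sicily replicates 1, 2 and 3, against 42078 and 24512 CPM in Campania replicates 1 and 2.

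Individual clusters show how wide the site difference was among those counted in every library. Cluster-27903.37702 had 27.2, 24.8 and 35.5 CPM in Sicily replicates 1, 2 and 3, against 0.0862 and 0.0669 CPM in Campania replicates 1 and 2. The means were 29.1 ± 5.61 CPM at Sicily (SD, n = 3) and 0.0765 ± 0.0136 CPM at Campania (SD, n = 2). The fitted log2 fold change was 8.47 ± 0.36 (SE, edgeR adjusted p = 0.000421). The Sicily libraries were alike, and the Campania level rested on 5 counts in all. The cluster was not confined to Sicily: the 9 Cabernet Sauvignon libraries held 610 to 1119 counts of it and the left-out library held 1011, whereas the 3 Aglianico Molise libraries held 4, 1 and 0.

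Cluster-27903.35490 followed the same course at a lower level, with 7.99, 12.6 and 8.995 CPM at Sicily against 0.0574 and 0.0335 CPM at Campania. Campania held 3 counts in all, so the ratio of means was 217 with a 95% Poisson interval of 74.3 to 1050, which covers counting error only (edgeR adjusted p = 0.000869). The 3 Aglianico Molise libraries held no count of it, the left-out library held 170, and the Cabernet Sauvignon libraries held 27 to 106. Both higher clusters were thus counted in Aglianico from Sicily and in every Cabernet Sauvignon library, and held at most 4 counts in any Aglianico library from Molise or in Campania replicates 1 and 2. With the library labelled Campania replicate 3 included, their calls were lost (adjusted p = 0.642 for Cluster-27903.37702 and 0.356 for Cluster-27903.35490).

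Cluster-27903.15151 showed the widest difference in the other direction. It had 0.0873, 0.137 and 0.207 CPM in Sicily replicates 1, 2 and 3, against 338.5 and 148.2 CPM in Campania replicates 1 and 2, a log2 fold change of -10.70 ± 0.54 (SE, edgeR adjusted p = 0.000869). The sites were far apart although the Campania libraries differed from each other. The Aglianico Molise libraries held 4227, 5099 and 2488 counts, the left-out library held 30, and the Cabernet Sauvignon libraries held 16 to 78. The call was lost when the library labelled Campania replicate 3 was included (adjusted p = 0.111).

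Cluster-27903.40438 was abundant everywhere except in Aglianico from Sicily. It had 0.436, 2.69 and 0.827 CPM in Sicily replicates 1, 2 and 3, against 446.2 and 419.5 CPM in Campania replicates 1 and 2, a log2 fold change of -8.35 ± 0.88 (SE, edgeR adjusted p = 0.0123). The 13 remaining libraries of the series held 16253 to 58295 counts of it, and the 3 Sicily libraries of Aglianico held 10, 59 and 16. Leaving out Campania replicate 1 ended the call (adjusted p = 0.0614), as did leaving out Campania replicate 2 (adjusted p = 0.0682) and using no filter (adjusted p = 0.0511). The log2 fold change was -8.305, -8.398 and -8.355 in these fits.

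**Figure D3:**
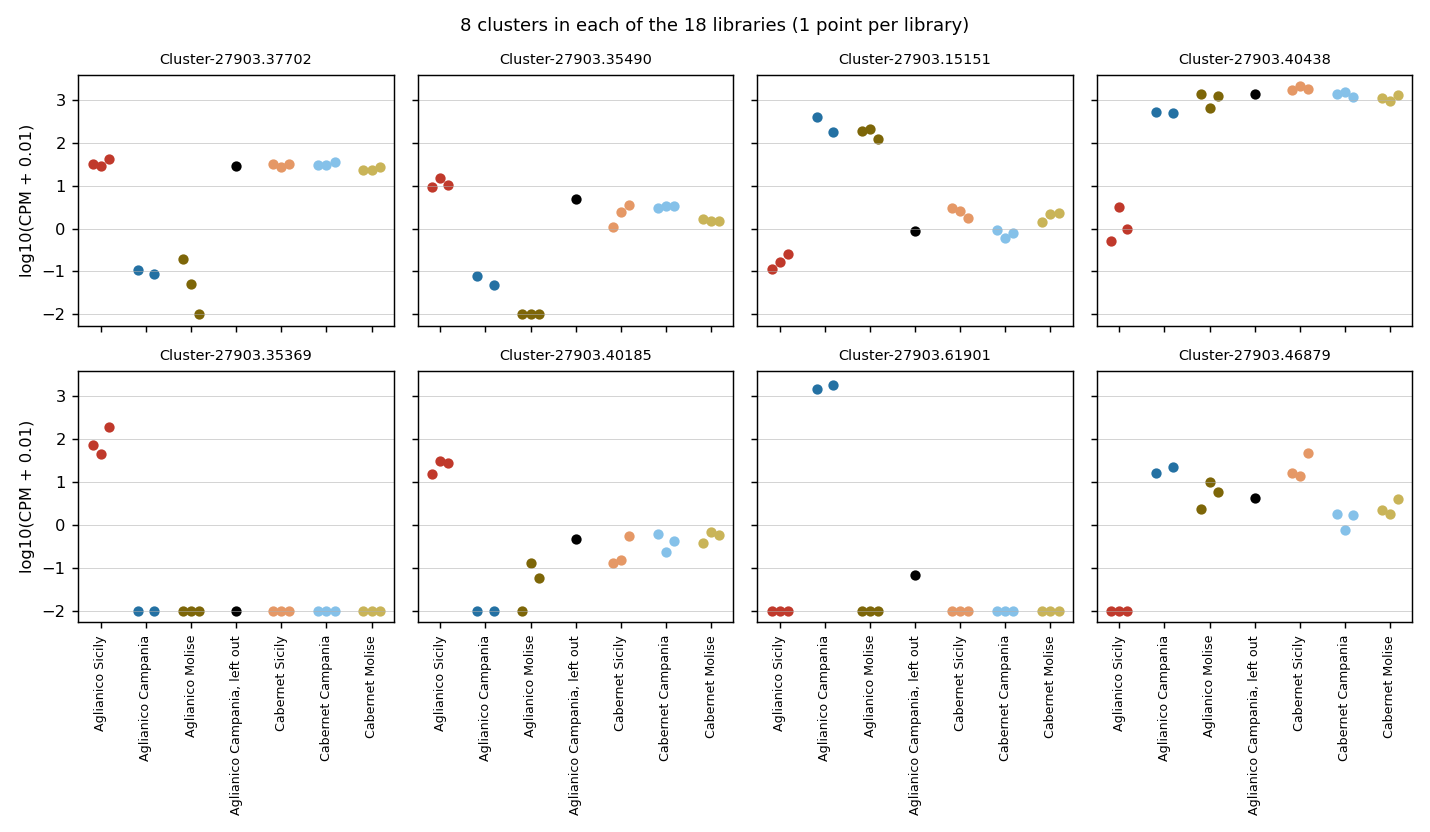
Levels of the 8 clusters named in the text in each of the 18 libraries, as log10 of CPM + 0.01 with all libraries scaled together (y axis), by variety and site (x axis), 1 point per library. In the lowest row of points, at -2, a library held no count; Cluster-27903.61901 is at that level in all libraries but Aglianico Campania replicates 1 and 2 and the left-out library, which held 2 counts.

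On/off clusters were found in both directions. At Sicily 123 clusters were counted in all 3 libraries and had no count in Campania replicates 1 and 2, and at Campania 139 clusters were counted in both libraries and had no count in any Sicily library. The balance depended on the libraries used. With the library labelled Campania replicate 3 as a Campania library, the filter was applied anew and kept 24815 clusters. Of these, 57 were on at Sicily and 141 on at Campania. The 141 are not the same set as the 139, of which 49 had no count in that library. The test called 111 of the 123 and 127 of the 139, against 12.9% of all clusters tested, but such clusters had passed the filter through 1 site only and so had to differ. Most were weakly transcribed. The mean level at the site where they were counted had a median of 1.10 CPM for the Sicily clusters and 0.789 CPM for the Campania clusters, and 16 of the 123 and 9 of the 139 reached 10 CPM. Together they took 0.0758%, 0.0669% and 0.332% of the counts in Sicily replicates 1, 2 and 3 for the Sicily clusters, and 0.29% and 0.235% in Campania replicates 1 and 2 for the Campania clusters.

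Within a site, the level of an on/off cluster was usually repeatable. The highest library was within 4-fold of the lowest for 100 of the 123 Sicily clusters and 126 of the 139 Campania clusters. The 5 Sicily clusters at 100 CPM or more were less so and differed between Sicily libraries by 5.51-fold to 285-fold, and the 2 Campania clusters at that level differed by 1.22-fold and 2810-fold. Counting with the 2 kinds together, the test called 238 on/off clusters. That number was 119 without Sicily replicate 1, 159 without Sicily replicate 2, 137 without Sicily replicate 3, 117 without Campania replicate 1, 115 without Campania replicate 2 and 79 with the library labelled Campania replicate 3 included.

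Cluster-27903.61901 was the most abundant called on/off cluster. It had 1263 and 1539 CPM in Campania replicates 1 and 2, with 43984 and 46024 counts, and no count in any Sicily library. Against a floor of 3 counts summed over the Sicily libraries, it was at least 30000-fold lower at Sicily (edgeR adjusted p = 0.000557). No other library of the series held more than 2 counts of it, and the 2 counts were in the left-out library, labelled Campania replicate 3. With it included the call was lost (adjusted p = 0.239).

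Cluster-27903.46879 likewise had no count at Sicily, against 14.1 and 19.0 CPM in Campania replicates 1 and 2, at least 354-fold lower (edgeR adjusted p = 0.00148). In Cabernet Sauvignon the order of the sites was the other way round, with 421, 376 and 980 counts in the 3 Sicily libraries and 51, 20 and 54 in the Campania libraries. The Aglianico Molise libraries held 52, 248 and 125 counts. The call held without any 1 of the 5 libraries, at an adjusted p of at most 0.0111.

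Cluster-27903.35369 was counted in Aglianico Sicily and in no other library. It had 60.8, 38.6 and 158.8 CPM in Sicily replicates 1, 2 and 3, and none of the 15 libraries of other groups held a count. Against 3 counts summed over the 2 Campania libraries, the mean of 86.1 ± 63.9 CPM at Sicily (SD, n = 3) was at least 1860-fold higher (edgeR adjusted p = 0.0364). Leaving out Sicily replicate 1 (adjusted p = 0.102), Campania replicate 1 (adjusted p = 0.0966) or Campania replicate 2 (adjusted p = 0.109) ended the call. It was also missed by limma-voom (adjusted p = 0.0559) and with no filter (adjusted p = 0.173).

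Cluster-27903.40185 had 13.4, 26.1 and 23.7 CPM in Sicily replicates 1, 2 and 3 and no count in Campania replicates 1 and 2, at least 454-fold higher at Sicily (edgeR adjusted p = 0.00148). The call held without any 1 of the 5 libraries, at an adjusted p of at most 0.0102. Other groups held little of it, with 0, 3 and 1 counts in the Aglianico Molise libraries, 3 to 17 in the Cabernet Sauvignon libraries and 16 in the left-out library.

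The Molise libraries, which took no part in choosing the on/off clusters, sided with Campania. Of the 123 clusters present at Sicily and absent at Campania, 1, 3 and 5 had 10 or more counts in Aglianico Molise replicates 1, 2 and 3, and 73 had no count in any Molise library. Of the 139 clusters present at Campania and absent at Sicily, 81, 89 and 71 had 10 or more counts in the Molise libraries, and 6 had no count in any of them.

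Each Aglianico site was also set against both others. Clusters with 10 or more counts in every library of 1 site and none at both other sites numbered 56 for Sicily, 6 for Campania and 46 for Molise. Clusters with no count at 1 site and 10 or more in every library of both other sites numbered 61 for Sicily, 0 for Campania and 5 for Molise. Campania entered with 2 libraries and the other sites with 3, and these numbers are a description with no test. Site and clone cannot be told apart in them.

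**Figure D4:**
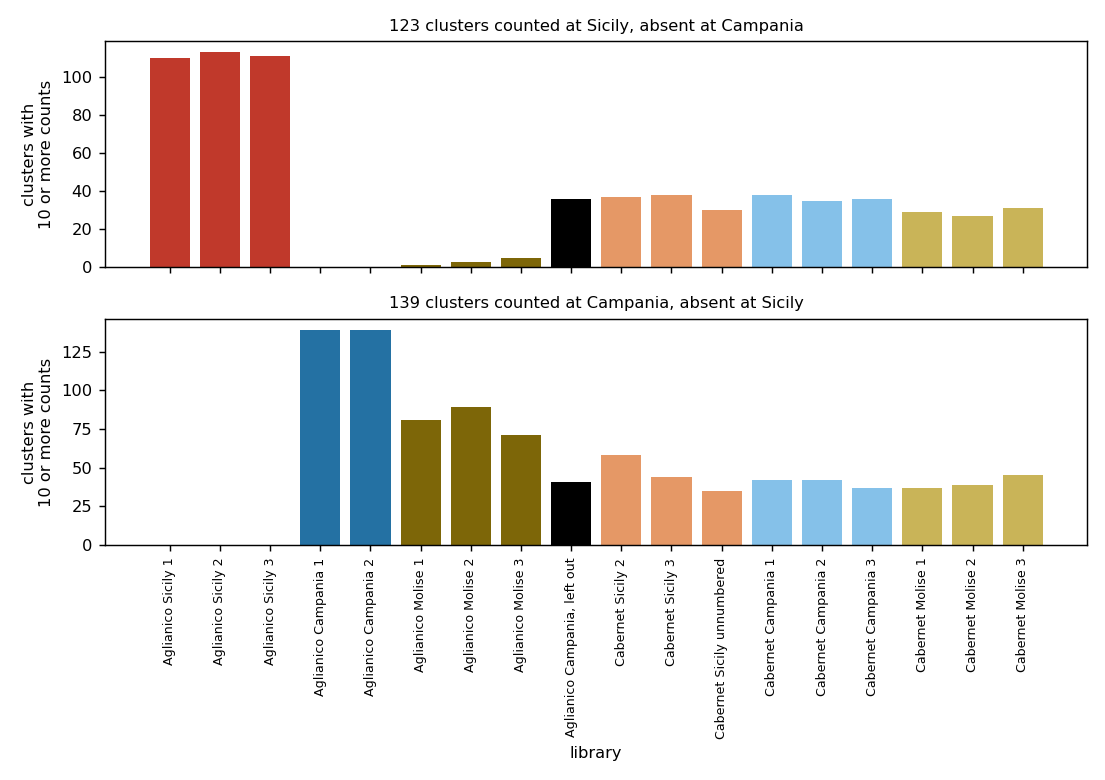
Number of on/off clusters with 10 or more counts (y axis) in each of the 18 libraries (x axis), for the 123 clusters counted at Sicily and absent at Campania (upper panel) and the 139 counted at Campania and absent at Sicily (lower panel), both in Aglianico. The Molise libraries of Aglianico hold 1 to 5 of the first set and 71 to 89 of the second, and the Cabernet Sauvignon libraries hold 27 to 38 of the first and 35 to 58 of the second.

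In Cabernet Sauvignon, few clusters of any kind showed such a split between the sites, and most on/off clusters of Aglianico did not. Of the 123 Sicily clusters, 30 to 38 had 10 or more counts in the Cabernet Sauvignon libraries from Sicily, 35 to 38 in those from Campania and 27 to 31 in those from Molise. Of the 139 Campania clusters, the numbers were 35 to 58, 37 to 42 and 37 to 45 in the same order of sites. The split between the sites was repeated for 2 of the 123 clusters, with counts in all 3 Cabernet Sauvignon Sicily libraries and none in the Campania libraries, and for 2 of the 139 in the other direction. These are 1.63% and 1.44%, where 1.11% and 0.0557% of the 26925 clusters kept in Cabernet Sauvignon had such a split in those directions. The bases are unlike, because the 26925 were filtered for counts in Cabernet Sauvignon and the 123 and 139 were not. Of the 123, 47 had no count in any Cabernet Sauvignon Sicily library and could not show the split. Of the 139, 38 had none in any Cabernet Sauvignon Campania library. The Cabernet Sauvignon Sicily libraries include 2 that stood apart, as the comparison of that variety gives. With its Sicily replicate 3 alone, the split was seen for 6 of the 123 and 7 of the 139, and no share over all clusters was worked out for that case. No count in any of the 13 libraries outside the comparison was found for 28 of the 123 and 2 of the 139.

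Among the 1036 partly counted clusters, 67 were called higher and 234 lower. With 3 libraries at Sicily and 2 at Campania, more patterns of missing counts could give a lower than a higher call, so the balance is not read as a direction. Of the 1036, 555 were counted in 2 of the 3 Sicily libraries and both Campania libraries, and 113 of them were called lower. Another 221 were counted in 1 Sicily library and both Campania libraries, and 121 of them were called lower. The 173 clusters counted in all 3 Sicily libraries and 1 Campania library gave all 67 higher calls. Since a cluster passed the filter through the libraries where it had counts, these shares are a description.

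Some abundant clusters were present in 1 library and absent from another of the same site. At Sicily, 16 clusters reached 100 CPM in some library and had no count in another, with a highest level of 17153 CPM, and 13 of them were absent from replicate 1. They took 0.533%, 4.44% and 2% of the scaled levels in Sicily replicates 1, 2 and 3, and 0.925% and 1.7% in Campania replicates 1 and 2. At Campania, 7 clusters were of this kind.

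For the called clusters among those counted in all 5 libraries, Aglianico from Molise was again mostly nearer to Campania. On the log2 scale (CPM + 0.5), the Molise mean lay on the Campania side of the midpoint between the sites for 308 plus 753 of the 1415 clusters called higher, where the 308 lay beyond the Campania mean. It was nearer to Sicily for 305 and beyond Sicily for 49. For the 1089 called lower the numbers were 300 beyond Campania, 437 nearer to Campania, 304 nearer to Sicily and 48 beyond Sicily. With Campania set at 0 and Sicily at 1, the median position of Molise was 0.26 for the higher and 0.28 for the lower clusters. Among clusters that differed at least 16-fold, Molise was on the Campania side for 87 of 95 higher and 42 of 46 lower. These are levels set beside each other, because a test of Molise against either site would share its libraries with this comparison. No such share was worked out over all clusters counted in the 5 libraries, so the position of Molise is not read as particular to the called ones.

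Cabernet Sauvignon from the same sites shares no library with the Aglianico comparison. Cabernet Sauvignon Sicily had 2 libraries that stood apart, replicate 2 with 45103 and the library without a replicate number with 29228 clusters at 10 or more counts, against 22365 to 25466 in the Cabernet Sauvignon libraries of the other sites and replicate 3. Results are therefore given with all 6 libraries and without these 2, in which case 1 Sicily library remained and was assumed to vary like the Campania libraries. Over the clusters tested in Cabernet Sauvignon, 9.96% were called higher and 5.24% lower at Sicily with all libraries, 15.2% in all. Without the 2, the shares were 5.3% and 1.77%, 7.06% in all.

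Most clusters that changed in Aglianico were not called in Cabernet Sauvignon, as held for all clusters tested there, of which 15.2% were called. Of the 1415 clusters higher in Aglianico, 1361 could be tested in Cabernet Sauvignon: 192 (14.1%) were called higher, 81 (5.95%) were called lower, and 53% had a positive log2 fold change, against 47.8% of all such clusters. The 192 were 8.96% of the 2142 Cabernet Sauvignon calls in that direction. Of the 1089 lower in Aglianico, 1042 could be tested, and 57 (5.47%) were called lower and 131 (12.6%) higher. The 57 were 5.08% of the 1121 Cabernet Sauvignon calls in that direction.

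With all libraries, the shares called lower, 5.95% and 5.47%, were near the 5.24% over all clusters tested, and the shares called higher, 14.1% and 12.6%, were above the 9.96%. The median Cabernet Sauvignon log2 fold change was 0.03 for the clusters higher in Aglianico, whose own median was 1.59, and 0.00 for those lower in Aglianico, whose own median was -1.89. Without the 2 Sicily libraries, 141 (10.4%) of the higher clusters were called higher and 19 (1.4%) lower, against 5.3% and 1.77% over all clusters tested. Of the lower clusters, 32 (3.07%) were called lower and 63 (6.05%) higher. In that fit both shares called in the same direction as in Aglianico were above the background. The sign was the same as in Aglianico for 59.3% of the higher and 56.6% of the lower clusters, where 47.5% of all such clusters were positive, and the medians were 0.11 and -0.16. These differences from the background were not tested.

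**Figure D5:**
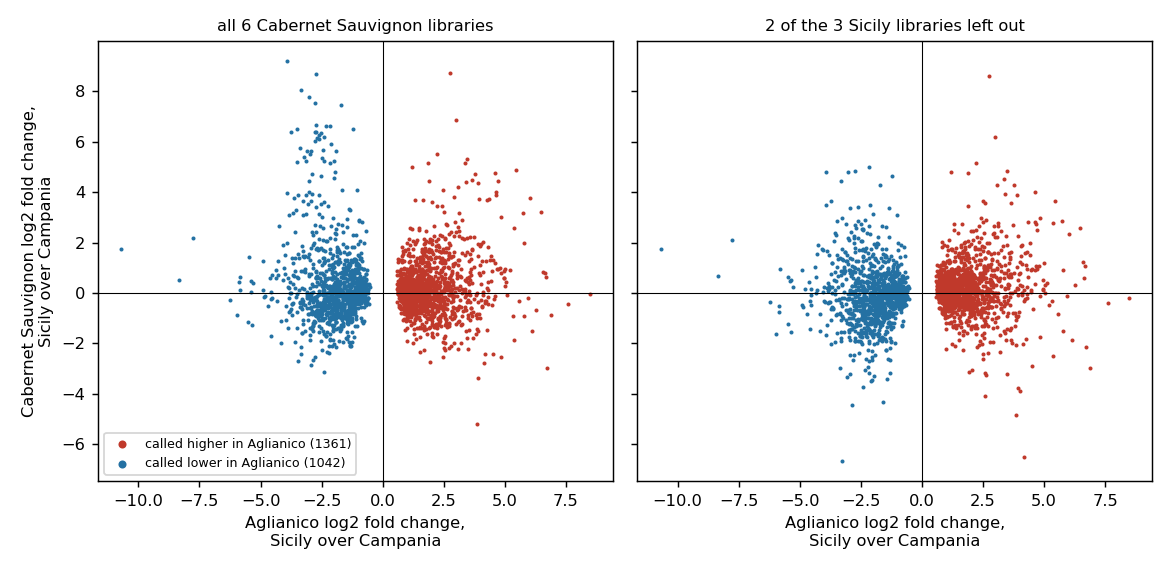
Log2 fold change of Sicily over Campania in Cabernet Sauvignon (y axis) against that in Aglianico (x axis), for clusters counted in all 5 Aglianico libraries and called there, 1 point per cluster, with all 6 Cabernet Sauvignon libraries (left) and with 2 of its 3 Sicily libraries left out (right). Of the 1361 clusters called higher in Aglianico, 53% lie above zero on the y axis on the left and 59.3% on the right.

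The difference of the site effects between the varieties was tested directly, in 1 fit of the 5 Aglianico and 6 Cabernet Sauvignon libraries. Of the 23520 clusters, 18.3% differed between the varieties in their Sicily against Campania difference, and 7.98% without the 2 Cabernet Sauvignon Sicily libraries. The test called 855 of the 1415 clusters higher in Aglianico and 593 of the 1089 lower, and without those libraries 532 and 372. These clusters were chosen from the same Aglianico libraries, which favours a called difference. The 4 named clusters counted in all 5 libraries were among those called, with adjusted p of 1.24e-06 for Cluster-27903.37702, 0.000219 for Cluster-27903.35490, 3.19e-06 for Cluster-27903.15151 and 0.000219 for Cluster-27903.40438 (edgeR). For Cluster-27903.35369 and Cluster-27903.61901 no such difference can be estimated, since Cabernet Sauvignon held no count at either site.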

How the data were processed

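RNA of ripe berries without seeds was sequenced from polyadenylated RNA with a NEBNext Ultra kit, per the labels' protocols. The authors deposited expected counts per transcript cluster, which are estimates and not scaled to depth. In the 5 libraries, 5.6% to 7.36% of values were fractional. CASAVA 1.8, RSEM and DESeq2 are listed without roles, per the submitters' processing notes. Aligner, assembler and build: not given in the sources used here. Reads of related genes or alleles can be divided between clusters, so single levels are uncertain to that extent. Samples were grouped by title, all 18 columns were mapped (0 left aside), and 1 Cabernet Sauvignon Sicily column carried no legible replicate number.

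Counts were rounded. Clusters with 10 or more counts in at least 2 of the 5 libraries were kept (23520 kept, 73922 removed), with 99.5% to 99.8% of each library's counts. The test was edgeR 4.0.16 (R 4.3.3) glmQLFit and glmQLFTest with robust shrinkage and TMM factors of 0.739 to 1.33, on the 5 libraries alone; a cluster was called at a Benjamini-Hochberg adjusted p under 0.05 over all kept clusters. Standard errors are the log2 fold change over the square root of F. The test was also tried on simulated counts. No 2 of the 5 libraries agreed within sampling noise (lowest chi-square per degree of freedom 133). Named clusters are the 2 highest and 2 lowest log2 fold changes among called clusters counted in all 5 libraries, and the 2 most abundant called on/off clusters of each site; all had to average 5 CPM or more over the 5 libraries without overlap between sites. Floors and Poisson intervals cover counting error only. The alternatives were RLE and upper-quartile scaling, other filters, DESeq2 1.42.0, limma-voom (limma 3.58.1), other sets of libraries, a replicate block, leaving out each library, and 2 further rankings by abundance. The comparison, its libraries and the rules were chosen with earlier results of these data known.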

Additional observations from a re-analysis of the deposited data

Results flagged for a closer look

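The difference between Sicily and Campania itself differed between the varieties for 4314 clusters of 23520 (edgeR adjusted p under 0.05). Among the named clusters, the Aglianico minus the Cabernet Sauvignon log2 fold change was 8.55 for Cluster-27903.37702, 8.06 for Cluster-27903.35490, -12.4 for Cluster-27903.15151 and -8.87 for Cluster-27903.40438. Without the 2 Cabernet Sauvignon Sicily libraries that stood apart, these values were 8.72, 8.02, -12.5 and -9.01. The on/off clusters Cluster-27903.40185 and Cluster-27903.46879 also differed between the varieties, with edgeR adjusted p of 0.000463 and 0.000505. Their fitted size has no finite estimate in Aglianico and is not given. All these named clusters were chosen by their site difference in the same Aglianico libraries, which favours a called difference. The on/off clusters had also passed the filter through 1 site only, so these p-values are no independent support. In the library labelled Aglianico Campania replicate 3, which was left out of the comparison, 36 of the 123 clusters counted at Sicily and absent from Campania replicates 1 and 2 had 10 or more counts, beside 35 to 38 in the Cabernet Sauvignon Campania libraries.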

How the results depend on the processing

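The numbers called among clusters counted in all 5 libraries stayed within 1.5 times of 1415 higher and 1089 lower under RLE and upper-quartile scaling, the filterByExpr filter, limma-voom and a fit with Aglianico Molise. They were 2381 and 1899 with no filter, 2533 and 1814 by DESeq2, 2287 and 1886 in a fit on 17 libraries, and 307 and 214 with Campania replicate 3 included. With the replicate number as a block they were 1035 and 571. Among the 5 libraries only Sicily has a replicate 3, so in the block fit that library added nothing to the site contrast. Whether the replicate numbers pair the samples could not be decided. The deviations from the site mean of Sicily and Campania correlated at -0.164 for number 1 and 0.229 for number 2. With 2 Campania libraries the deviations of that site mirror each other, so each correlation has an opposite of equal size. Among the 7222 least abundant clusters the block gave 104 higher and 109 lower, against 168 and 388. The block ended the call of Cluster-27903.40438 and of no other named cluster. On/off clusters called were 638 with no filter and 79 with Campania replicate 3 included, against 238. Leaving out 1 library gave 431 to 1030 higher, 253 to 632 lower and 115 to 159 on/off; those fits kept the filter of the 5 libraries. No named cluster changed sign under any alternative run. In Cabernet Sauvignon 3364 clusters were called, 1563 without the 2 Sicily libraries that stood apart, 1856 with the block and 1269 to 4060 without 1 library. The interaction gave 4314 calls, 1877 without those libraries, 1977 with the block and 2508 to 4591 without 1 library. The difference in the share of the 20 most abundant clusters, 8.98 percentage points, was 5.92 to 12.0 without 1 library. The cause of these changes was not tested. The 7222 least abundant clusters lay at no more than 1.75 CPM, and the part of depth in their calls was not tested.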
